A study of Mus musculus with 8 samples.

Results

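The genes described here encode the contractile apparatus of smooth muscle, measured in dorsal skin of mice on a control diet or a diet with collagen hydrolysate. They were taken by name: *Acta2*, *Myh11*, *Tagln*, *Cnn1*, *Smtn*, *Des*, *Lmod1*, *Mylk*, *Synpo2* and *Myocd*. All 10 were on the array, of 18193 genes in all, through 20 of its 45037 probe sets that are not controls, and each gene was represented by its probe set with the highest mean over the 8 arrays. A probe set is a group of short probes that report 1 transcript region. Of the 10 genes, 9 passed a filter that set aside the lowest 30% of genes by mean value, and *Myocd* did not. The animals were females of the hairless strain Hos:HR-1, 9 weeks old when feeding began and 21 weeks old when skin was taken. Controls ate AIN-93G, a purified rodent diet, for 12 weeks, and the collagen group ate 2.0 g of hydrolysate of fish scale collagen mixed into each 100 g of AIN-93G. Of 16 mice, 8 on each diet, 4 of each diet were put on arrays, and the comparison asks whether the diet is accompanied by a difference in skin gene expression. The mice were kept several to a cage, and the labels do not say which arrays share a cage.

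Smooth muscle shortens when calcium activates the kinase encoded by *Mylk*, which phosphorylates the myosin light chain and lets the myosin encoded by *Myh11* pull on filaments of the actin encoded by *Acta2*. Calponin (*Cnn1*), transgelin (*Tagln*) and smoothelin (*Smtn*) bind those filaments, leiomodin 1 (*Lmod1*) helps build them, desmin (*Des*) forms the intermediate filaments that tie them to the cell, and myocardin (*Myocd*) is a cofactor of serum response factor that turns many of these genes on. In skin, smooth muscle lies in the arrector pili muscles of hair follicles and in the walls of arteries and veins, while *Acta2* and *Tagln* are also made by pericytes, myofibroblasts and the dermal sheath of the follicle. Desmin and synaptopodin 2 (*Synpo2*) are made in skeletal muscle too, and the dorsal skin of mice carries a sheet of skeletal muscle, the panniculus carnosus. In whole skin, fewer cells of a type and less RNA per cell cannot be told apart.

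The deposited values were taken to be on a log2 scale and were nearly the same on every array. Over the 8 arrays, a probe set had a median SD of 8.66e-06, so no fold changes are given. A gene's value on an array is given as its distance from that gene's 8-array mean, in units of the gene's own pooled within-diet SD (written SD units), which shows order and distance between arrays but not the size of a change in RNA. In a setting with other values or arrays, differences are in the SD of that setting, so their sizes cannot be compared across settings. The array medians differed by at most 0.000369 on the deposited scale. The epidermal markers *Krt10* and *Krt14*, keratins of the suprabasal and basal layers, had mean values of 14.07 and 13.89 on arrays whose values ended at 14.27. Of 16 skeletal muscle genes in a marker list, all 16 were measured and tested, and *Acta1*, the skeletal muscle actin, had a mean value of 12.73. Control replicate 4 and collagen replicate 1 stood apart from the other 6 arrays in these 16 genes, with mean levels of -1.35 and -1.38 SD units against 0.15 to 0.88 on the others, and results that rest on these 2 arrays are given with and without them.

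The mean deposited values of the chosen probe sets were 11.31 for *Acta2*, 10.19 for *Mylk*, 9.55 for *Tagln*, 9.09 for *Des*, 8.60 for *Myh11*, 8.54 for *Smtn*, 7.83 for *Synpo2*, 7.48 for *Cnn1*, 7.02 for *Lmod1* and 6.47 for *Myocd*. Probe sets differ in how well they bind their target, so these values give no order of transcript amounts, and none is read from them. The spread over arrays divided the members. The SD over the 8 arrays was above 0.01 in 2 of the 10 genes, *Des* at 0.0314 and *Synpo2* at 0.102, and that level was exceeded by 142 of all 18193 genes (0.781%) and by 16 of the 16 skeletal muscle markers. *Acta2* had an SD of 8.53e-06.

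**Figure D1:**
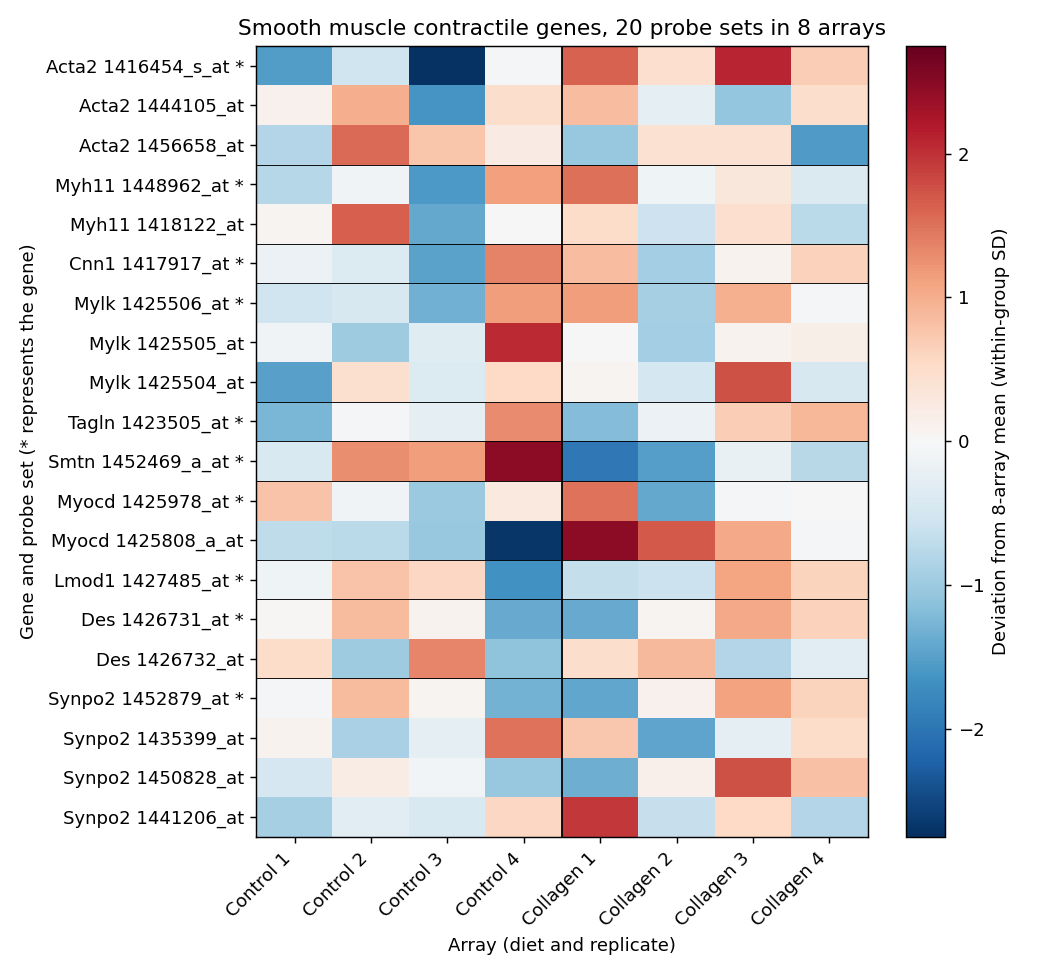
Deviation from the mean over 8 arrays, in SD units, of all 20 probe sets of the 10 genes (rows) on each of the 4 control and 4 collagen arrays (columns). *Des* 1426731_at and the *Synpo2* probe sets 1452879_at and 1450828_at are low on control replicate 4 and collagen replicate 1. On these arrays *Mylk* 1425506_at and *Myh11* 1448962_at are high. *Des* 1426732_at, below the filter, lies at -1.11 on control replicate 4 and at 0.49 on collagen replicate 1.

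Between the diets, none of the 9 tested members passed the threshold, an adjusted p below 0.05 in limma with Benjamini-Hochberg adjustment over all 12735 genes tested, where the background was 0 genes called (0%). At an unadjusted p below 0.05 in limma, 2 of 9 members differed, *Acta2* higher and *Smtn* lower on the collagen diet, beside 682 genes (5.36%) of all tested, of which 154 (1.21%) were higher and 528 (4.15%) lower. This count of members was 0 after quantile normalization and after median centring, where 73 and 78 of all genes were below 0.05, and 1 when the probe sets of a gene were averaged or without control replicate 4 and collagen replicate 1. The median difference over the 9 members, collagen minus control, was 0.22 SD units and over all genes -0.08. The values of 8 of 9 members were higher on the collagen diet, beside 45.5% of all genes tested, but 5 of 9 were higher after quantile normalization of the arrays, beside 34.3% of all genes, and 3 of 9 after median centring, beside 13.5%. The count also moved to 4 of 9 without collagen replicate 3, with a median of -0.079, and to 5 of 9 without control replicate 4, with a median of 0.68. Without control replicate 4 and collagen replicate 1 together, 7 of 9 were higher and the median was 0.80.

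*Acta2*, the actin of the smooth muscle thin filament, lay at -1.55, -0.54, -2.72 and -0.046 SD units on control arrays 1 to 4 and at 1.62, 0.46, 2.10 and 0.68 on collagen arrays 1 to 4. Every collagen array was above every control array, with collagen replicate 3 the highest and control replicate 3 the lowest. Of all genes tested, 99 (0.777%) were separated in this direction and 421 (3.31%) in either. The difference was 2.43 ± 0.78 SD units (SE, n = 4 per diet), with an adjusted p of 0.831 in limma. In the SD of each setting, it was -0.064 after median centring, 0.71 after quantile normalization and 0.43 with the mean of all its probe sets. On the deposited scale it was 1.3e-05, against -1.02e-05 after median centring and 0.000156 after quantile normalization. An exact permutation test of 4 arrays against 4 cannot go below 0.0286. The other *Acta2* probe sets did not show the separation: 1444105_at differed by 0.00062 SD units and 1456658_at, below the filter, by -0.88. In a fit over 31526 probe sets, which held 17 of the 20, 0 member probe sets passed in limma, 2 had an unadjusted p below 0.05, those of *Acta2* and *Smtn* already given, beside 5.58% of all, and 1 had groups that did not overlap, beside 3.38%.

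*Smtn*, encoding smoothelin of contractile filaments, went the opposite way. It lay at -0.43, 1.28, 1.15 and 2.45 SD units on control arrays 1 to 4 and at -1.96, -1.51, -0.21 and -0.77 on collagen arrays 1 to 4. Control replicate 1 fell inside the range of the collagen arrays, so the groups overlapped, while the other 3 control arrays were above all 4 collagen arrays. The difference was -2.23 ± 0.67 SD units (SE, n = 4 per diet), with an adjusted p of 0.809 in limma. Without control replicate 1 it was -3.64 SD units. In the SD of each setting, it was -0.80 after quantile normalization and -1.31 after median centring, with the same sign. On the deposited scale it was -0.000231, against -0.000629 after quantile normalization and -0.000254 after median centring.

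The differences of the other 7 tested members were at most 0.66 SD units in size over all 8 arrays. They were 0.66 ± 0.68 (SE) for *Myh11*, 0.59 ± 0.71 for *Mylk*, 0.32 ± 0.67 for *Cnn1*, 0.22 ± 0.68 for *Lmod1*, 0.20 ± 0.67 for *Synpo2*, 0.19 ± 0.67 for *Des* and 0.12 ± 0.75 for *Tagln*, each with an adjusted p of 0.999 in limma. All 7 groups overlapped and every difference was within its SE, with n = 4 per diet. Without control replicate 4 and collagen replicate 1 the differences were 1.30 SD units for *Myh11*, 1.04 for *Mylk*, 0.80 for *Cnn1*, -0.067 for *Lmod1*, 0.62 for *Synpo2*, 0.53 for *Des* and 1.60 for *Tagln*, none of which passed in limma either. The sign of each of the 7 differences turned under at least 1 of the settings tried. *Myocd* at 1425978_at lay below the filter and had diet means of -0.014 and 0.014 SD units. Its second probe set, 1425808_a_at, was higher on all 4 collagen arrays than on any control array, but it was also below the filter and its whole range over the 8 arrays was 1.40e-06 on the deposited scale.

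**Figure D2:**
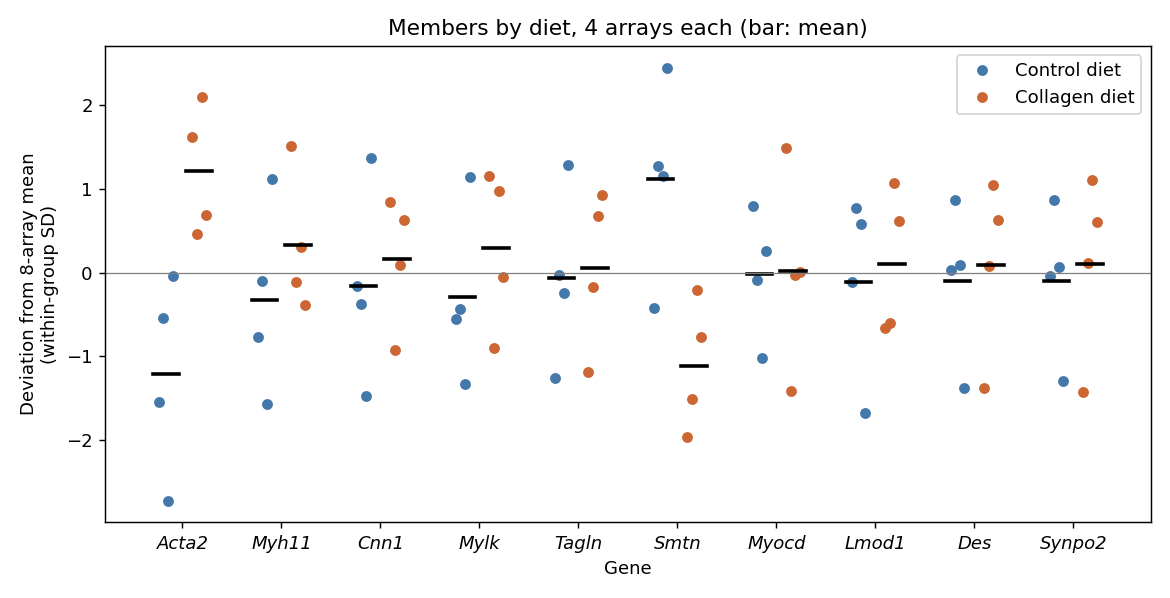
Deviation from the mean over 8 arrays, in SD units, for each of the 10 genes on each array, control and collagen diet side by side; points are arrays (n = 4 per diet) and lines are diet means. *Acta2* is separated by diet, *Smtn* is lower on the collagen diet with 1 control array inside the collagen range, and the other genes overlap.

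**Figure D3:**
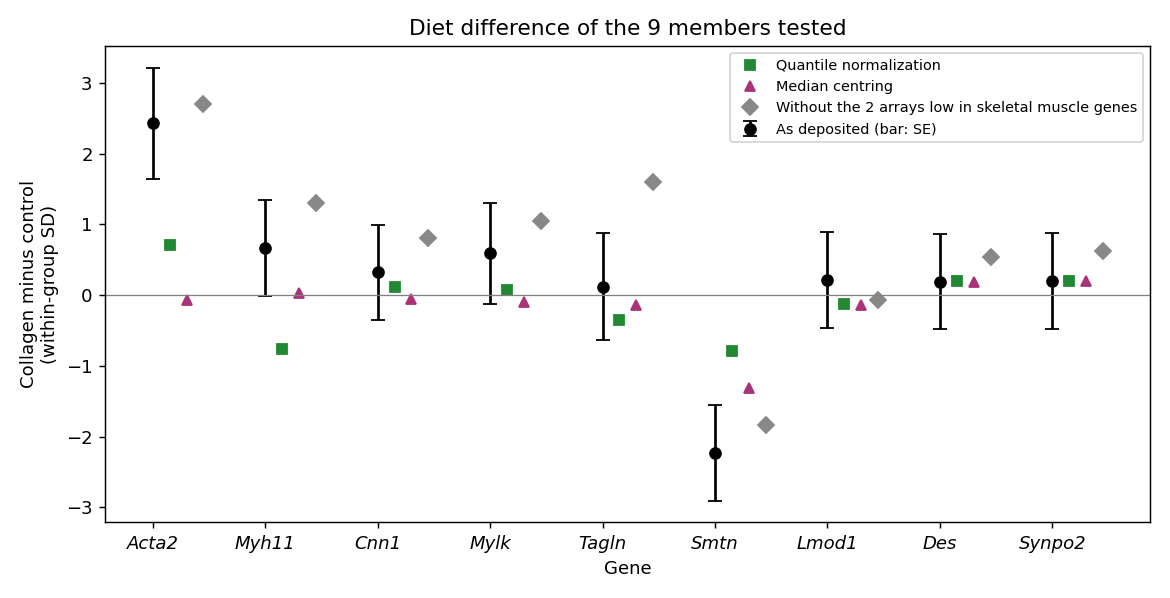
Collagen minus control difference in SD units for the 9 tested members, as deposited with its SE (black, n = 4 arrays per diet), after quantile normalization, after median centring, and without control replicate 4 and collagen replicate 1. *Acta2* at 2.43 and *Smtn* at -2.23 are farthest from 0 as deposited, and *Acta2* moves to -0.064 after median centring. Each setting is shown in its own SD, so sizes cannot be compared across settings.

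Some of the members moved together from array to array. Of the 45 pairs, 5 passed an adjusted p below 0.05 by an exact permutation test of Pearson's r over all 40320 orders of the 8 arrays, with Benjamini-Hochberg adjustment over the 45, and 3 passed by Spearman's rho. The count was 26 after quantile normalization, 38 after median centring and 0 without control replicate 4 and collagen replicate 1. Median centring takes the same array medians, up to 0.000369 apart, from every gene, including *Acta2* with an SD of 8.53e-06. Genes of small spread then share a pattern, so the count and any r after centring do not describe the members alone. The share over other gene pairs was not counted. Of the 5 pairs, 2 joined *Mylk* with *Myh11* and with *Cnn1*, and 3 joined *Des*, *Synpo2* and *Lmod1*. *Acta2*, *Myh11*, *Cnn1* and *Mylk* are described below as the first set and *Des*, *Synpo2* and *Lmod1* as the second. These sets were made after the values were seen and serve as a description.

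In the first set, *Mylk*, the kinase that starts contraction, lay at -0.56, -0.43, -1.33 and 1.15 SD units on control arrays 1 to 4 and at 1.15, -0.91, 0.97 and -0.047 on collagen arrays 1 to 4. *Myh11*, the myosin heavy chain it serves, lay at -0.77, -0.098, -1.57 and 1.12 on the control arrays and at 1.51, -0.11, 0.31 and -0.39 on the collagen arrays. *Cnn1*, the calponin of the thin filament, lay at -0.16, -0.37, -1.48 and 1.37 on the control arrays and at 0.85, -0.93, 0.091 and 0.63 on the collagen arrays. All 3 genes were lowest on control replicate 3 and above their means on control replicate 4 and collagen replicate 1, the arrays that were lowest in skeletal muscle genes. These orders, and the r below, are those of the probe set chosen for each gene. *Myh11* 1418122_at was also lowest on control replicate 3, at -1.40, but highest on control replicate 2, at 1.65. On control replicate 4 and collagen replicate 1, *Mylk* 1425505_at lay at 2.06 and 0.014, and 1425504_at at 0.54 and 0.067.

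*Myh11* and *Mylk* had r = 0.89 (exact permutation p = 0.0025, adjusted 0.0285) and rho = 0.88 (exact permutation p = 0.0072, adjusted 0.0652) over 8 arrays. Without the 2 arrays farthest from the median of *Myh11* r was 0.79, and over the 6 arrays other than control replicate 4 and collagen replicate 1 it was 0.75 (exact permutation p = 0.0986, adjusted 0.371). *Cnn1* and *Mylk* had r = 0.88 (exact permutation p = 0.0052, adjusted 0.0471) and rho = 0.93 (exact permutation p = 0.0022, adjusted 0.0335), with r = 0.76 without the 2 arrays farthest from the median of *Cnn1* and over the same 6 arrays alike. Both relations stayed positive in every subset of arrays tried but passed the threshold in only 2 of the 8 rounds that left out 1 array. *Myh11* with *Mylk* was lost without collagen replicate 1 or 3 or any 1 of the control arrays, and *Cnn1* with *Mylk* without collagen replicate 1 or 2 or any 1 of the control arrays. Their adjusted p reached 0.234 and 0.289, both without control replicate 3.

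*Acta2* went with the same genes without passing the threshold. Its r was 0.75 with *Myh11* and 0.75 with *Mylk* (exact permutation p = 0.0333 and 0.0361, both adjusted 0.203), with rho = 0.67 and 0.69, and without the 2 arrays farthest from the median of *Acta2* r was 0.65 and 0.50. Over the 6 arrays r was 0.91 and 0.84. All 6 pairs of the first set had a positive r, from 0.57 to 0.89, and from 0.74 to 0.88 after each value was taken as a deviation from its diet mean, but *Acta2* with *Myh11* had r = -0.083 after quantile normalization.

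The second set followed another order of the arrays. *Des*, the desmin of muscle intermediate filaments, lay at 0.035, 0.87, 0.094 and -1.38 SD units on control arrays 1 to 4 and at -1.38, 0.075, 1.05 and 0.63 on collagen arrays 1 to 4. *Synpo2*, an actin-binding protein of muscle Z-discs and dense bodies, lay at -0.041, 0.87, 0.071 and -1.30 on the control arrays and at -1.43, 0.11, 1.11 and 0.60 on the collagen arrays. *Lmod1*, which nucleates actin filaments in smooth muscle, lay at -0.11, 0.77, 0.58 and -1.68 on the control arrays and at -0.66, -0.60, 1.08 and 0.62 on the collagen arrays. All 3 were lowest on control replicate 4 or collagen replicate 1 and highest on collagen replicate 3. The other *Des* probe set, 1426732_at, below the filter, was at -1.11 on control replicate 4, 0.49 on collagen replicate 1 and -0.82 on collagen replicate 3.

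Over 8 arrays r was 1.00 for *Des* with *Synpo2* (adjusted p = 0.0028 in the exact permutation test), 0.89 for *Des* with *Lmod1* (adjusted p = 0.0028 in the same exact test) and 0.88 for *Lmod1* with *Synpo2* (adjusted p = 0.0285 in the same exact test). Control replicate 4 and collagen replicate 1 lie apart from the others in *Des* and *Synpo2*, which weighs on these values. Over the other 6 arrays r was 1.00 for *Des* with *Synpo2* (exact permutation p = 0.0028, adjusted 0.125, rho = 0.94), 0.81 for *Des* with *Lmod1* (exact permutation p = 0.0458, adjusted 0.344, rho = 0.94) and 0.78 for *Lmod1* with *Synpo2* (exact permutation p = 0.0722, adjusted 0.371, rho = 0.83). Over 6 arrays 0 of the 45 pairs passed the adjusted threshold and 6 had an unadjusted p below 0.05 by the exact permutation test, where 1 pair alone at the smallest p that 720 orders allow would have an adjusted p of 0.0625. The call of *Des* with *Lmod1* was lost without control replicate 4 and that of *Lmod1* with *Synpo2* without any 1 of 6 arrays, all 4 control arrays and collagen replicates 3 and 4. The r of *Des* and of *Synpo2* with *Lmod1* turned negative after median centring, -0.96 and -0.95, and after quantile normalization, -0.83 for both.

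The relation between the sets depended on the same 2 arrays. Over 8 arrays the 12 pairs between the sets had r from -0.59 to -0.0052, and over the other 6 arrays all 12 were positive, from 0.14 to 0.82. *Des* with *Mylk* had r = -0.43 over 8 arrays and 0.82 over 6 (exact permutation p = 0.0278, adjusted 0.344). Control replicate 4 and collagen replicate 1 were high in *Mylk* and *Myh11* and lowest in *Des* and in the skeletal muscle genes.

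**Figure D4:**
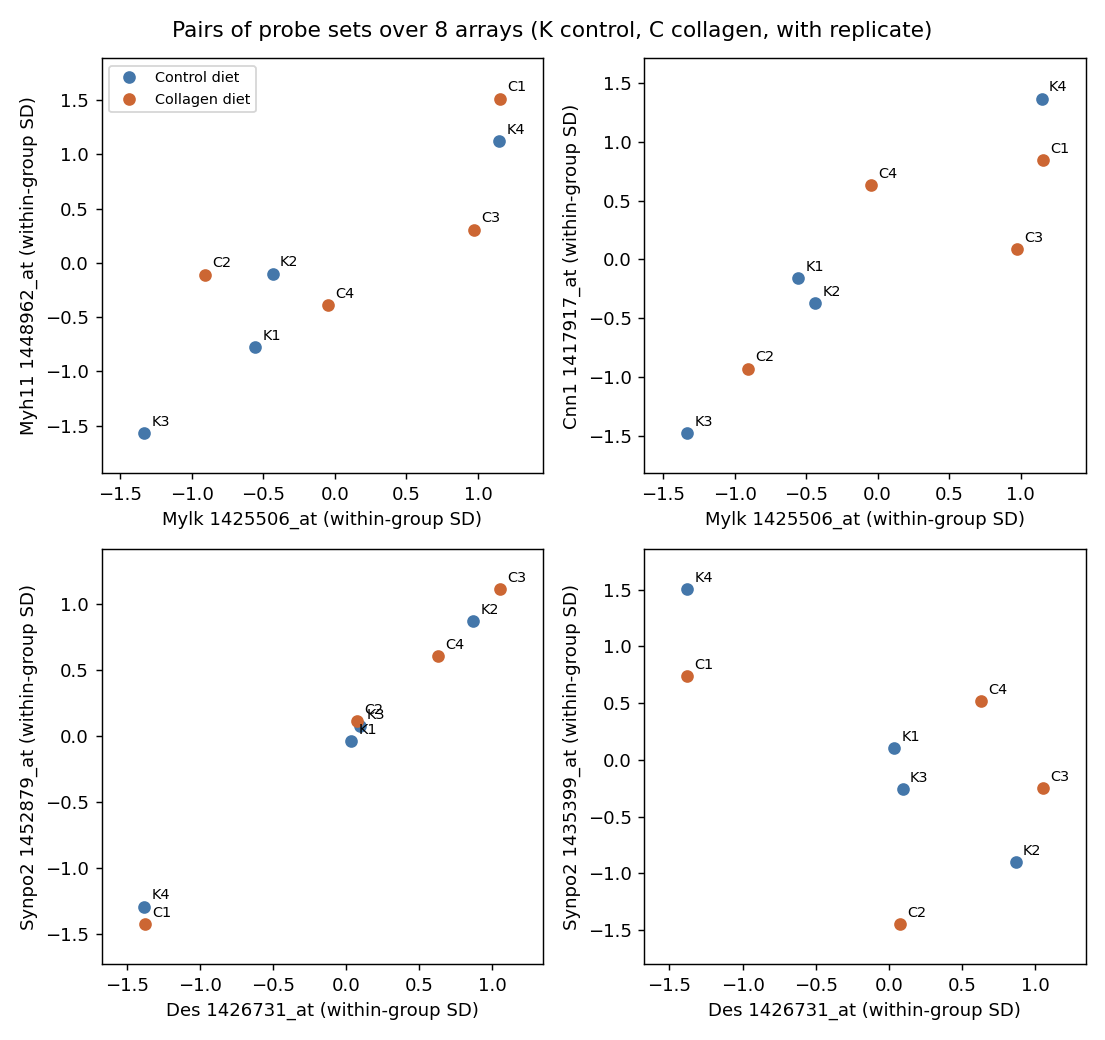
Pairs of probe sets over the 8 arrays, *Myh11* and *Cnn1* against *Mylk* and 2 *Synpo2* probe sets against *Des*, both axes in SD units from the 8-array mean; each point is 1 array, coloured by diet and labelled K (control) or C (collagen) with its replicate. *Myh11* and *Cnn1* climb with *Mylk*, *Synpo2* 1452879_at lies close to a line with *Des*, and 1435399_at is highest on control replicate 4, where *Des* is lowest.

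*Tagln*, *Smtn* and *Myocd* were in no pair that passed the threshold. *Tagln*, the transgelin that binds actin filaments, lay at -1.25, -0.032, -0.25 and 1.29 SD units on control arrays 1 to 4 and at -1.18, -0.17, 0.67 and 0.92 on collagen arrays 1 to 4. It was highest on control replicate 4, as *Cnn1* was, and near its lowest on collagen replicate 1, where *Myh11* was highest. *Tagln* with *Smtn* had r = 0.52 over 8 arrays (exact permutation p = 0.187, adjusted 0.517) and 0.94 when each value was taken as a deviation from its diet mean. Within the 4 control arrays r was 0.98 and within the 4 collagen arrays 0.90. Over the 6 arrays r was -0.093, but there the values were not taken from their diet means. The diet difference of *Smtn* enters that value, so it cannot be set beside the 0.94. *Myocd*, the cofactor of serum response factor, had r = 0.71 with *Cnn1* (exact permutation p = 0.0437, adjusted 0.218) and 0.67 with *Mylk* (exact permutation p = 0.0705, adjusted 0.317) over 8 arrays, and 0.70 and 0.49 over the 6.

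The members were also set against the mean level of the 16 skeletal muscle markers. Over 8 arrays r was 0.96 with *Des* and 0.96 with *Synpo2*, and 0.86 with *Lmod1*, each with an adjusted p of 0.0596 in the exact permutation test. Over the 6 arrays that did not stand apart these values were 0.75 (exact permutation p = 0.101, adjusted 0.417), 0.74 (exact permutation p = 0.110, adjusted 0.427) and 0.72 (exact permutation p = 0.0875, adjusted 0.417). *Mylk* turned from r = -0.51 over 8 arrays (exact permutation p = 0.202) to 0.84 over 6 (exact permutation p = 0.0194, adjusted 0.331). *Tagln* went from 0.15 (exact permutation p = 0.718) to 0.83 (exact permutation p = 0.0292, adjusted 0.340), so over the 6 arrays the second set did not have the highest r. Of 70 relations between the 10 genes and 7 marker lists, 0 passed after adjustment by Pearson's r over 8 arrays or over 6, and 7 had an unadjusted p below 0.05 over 8 by the exact permutation test. By Spearman's rho over 8 arrays *Lmod1* passed with the skeletal muscle list and equally with the arrector pili and dermal sheath list. Each had an adjusted p of 0.0399 in the exact permutation test. With the latter list r over 8 arrays was 0.72 for *Des*, 0.80 for *Lmod1* and 0.73 for *Synpo2*. Over the 6 arrays these were 0.77, 0.73 and 0.79. This list holds only 3 genes, and they did not move alike. With *Des*, r over 8 arrays was 0.63 for *Itga8*, 0.57 for *Npnt* and -0.22 for *Acan*, which lay below the filter. Over the 6 arrays it was 0.81, 0.76 and -0.71. *Lmod1* with the pericyte list had r = 0.77 over 8 arrays and 0.86 over the 6. *Acta1* and *Ckm*, the actin and creatine kinase of skeletal muscle, had r = 0.99 and 0.97 with *Des* over 8 arrays and 0.99 and 0.82 over the 6, given as a description. Not all of the 16 markers followed *Des* this closely. Over 8 arrays r was 0.37 for *Myh4*, 0.74 for *Actn3* and 0.90 for *Pvalb*, and over the 6 it was -0.49, -0.024 and 0.36. The part of skeletal muscle in these relations was not tested.

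**Figure D5:**
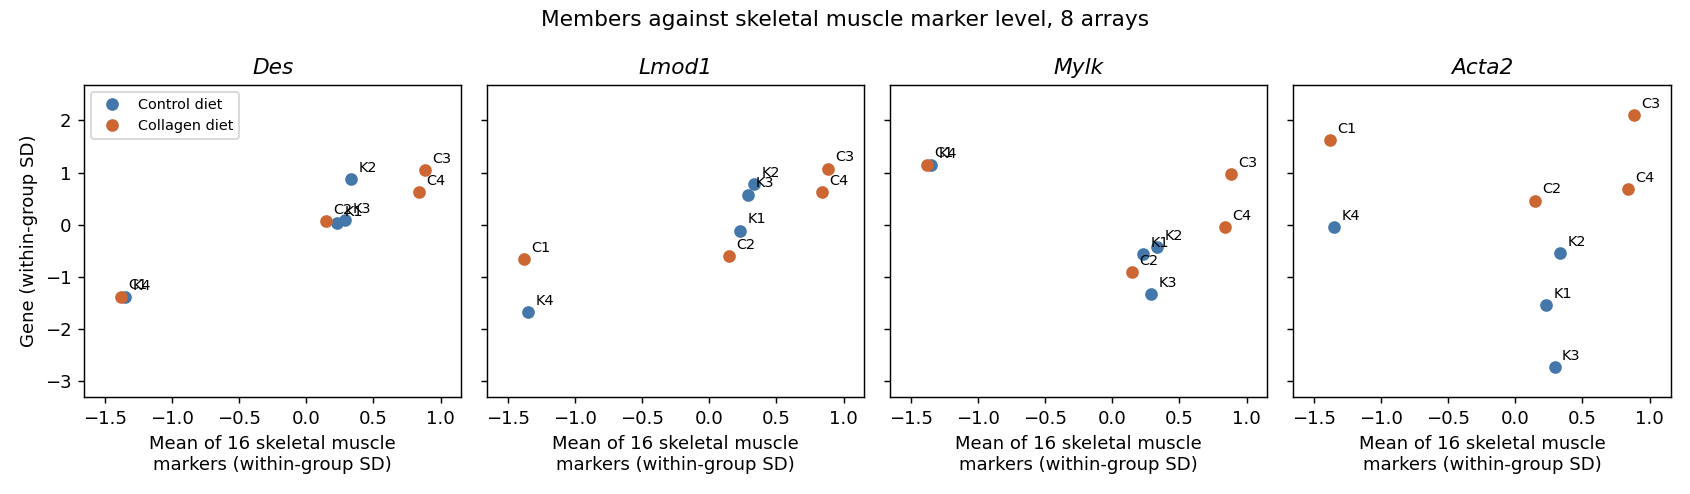
Deviation of member genes (*Des*, *Lmod1*, *Mylk* and *Acta2*; vertical axis, SD units) against the mean level of 16 skeletal muscle markers (horizontal axis, SD units) on the 8 arrays; points are arrays, coloured by diet and labelled K (control) or C (collagen) with the replicate. The 2 arrays at -1.35 and -1.38 on the horizontal axis are control replicate 4 and collagen replicate 1, low in *Des* and high in *Mylk*.

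The 4 probe sets of *Synpo2* divided between the same orders of the arrays. 1452879_at and 1450828_at had r = 0.84 with each other over the 6 arrays (exact permutation p = 0.0208, adjusted 0.454 over 190 probe set pairs), and 1450828_at lay at -1.03 SD units on control replicate 4 and -1.35 on collagen replicate 1. 1435399_at lay at 1.5 and 0.73 on these 2 arrays, high where the others were low. Its r with *Des* was -0.65 over 8 arrays and 0.11 over the 6 (exact permutation p = 0.815). It went with the *Mylk* probe set 1425505_at, with r = 0.89 over 8 arrays (exact permutation p = 0.0013, adjusted 0.0636), rho = 0.86 and r = 0.90 over the 6 arrays. 1441206_at was highest on collagen replicate 1, at 1.94. The files give no transcript form for each probe set.

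The promoters of members from both sets are shown for the elements through which muscle genes are known to be switched on. RefSeq (GRCm38.p6) gave the promoter of 7 of the 10 genes, and only bases upstream of each gene's annotated span are printed, except for *Acta2*. Capitals mark matches to the letters searched on both strands within 250 bases before the start: the CArG box bound by serum response factor (CC, then 6 bases of which at least 5 are A or T, then GG), the MEF2 site, the E-box CANNTG bound by factors such as MyoD, and MCAT, CATTCC, bound by TEAD factors. No 2 of the matches printed overlap.

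*Acta2* has CArG boxes 84 and 34 bases before its start, inside the annotated span of the gene and printed with 10 bases on each side, from chr19:34255438-34255467 and chr19:34255388-34255417, minus strand, 5′ to 3′. Its window also holds E-boxes 228, 220 and 182 bases and an MCAT element 146 bases before the start, which are not printed.
*Acta2* CArG site 1: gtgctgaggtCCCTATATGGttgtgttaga
*Acta2* CArG site 2: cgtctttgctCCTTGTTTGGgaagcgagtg

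*Cnn1*, at chr9:22099003-22099220 on the plus strand, has 1 E-box 234 bases before its start and no CArG letters in the window.
*Cnn1*: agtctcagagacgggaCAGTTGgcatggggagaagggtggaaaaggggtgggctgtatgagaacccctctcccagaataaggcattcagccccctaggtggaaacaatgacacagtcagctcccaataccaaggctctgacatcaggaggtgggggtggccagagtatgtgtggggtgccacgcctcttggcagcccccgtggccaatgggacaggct

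In the second set, *Des* at chr1:75360042-75360291 (plus strand) has E-boxes 220 and 36 bases before its start. *Lmod1* at chr1:135324563-135324812 (plus strand) has an MCAT element on the opposite strand at 130 and an E-box at 45. *Synpo2* at chr3:123236169-123236399 (minus strand) has a MEF2 site at 236 and E-boxes at 203 and 40.
*Des*: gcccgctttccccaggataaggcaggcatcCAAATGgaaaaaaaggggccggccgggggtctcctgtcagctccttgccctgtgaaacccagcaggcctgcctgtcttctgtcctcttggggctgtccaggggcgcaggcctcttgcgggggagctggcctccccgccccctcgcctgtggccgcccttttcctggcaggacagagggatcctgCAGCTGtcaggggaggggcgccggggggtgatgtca
*Lmod1*: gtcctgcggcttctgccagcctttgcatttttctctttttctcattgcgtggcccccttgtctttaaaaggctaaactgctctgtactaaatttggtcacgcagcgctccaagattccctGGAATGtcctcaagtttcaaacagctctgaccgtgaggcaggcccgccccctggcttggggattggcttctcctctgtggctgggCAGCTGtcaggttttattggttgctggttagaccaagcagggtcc
*Synpo2*: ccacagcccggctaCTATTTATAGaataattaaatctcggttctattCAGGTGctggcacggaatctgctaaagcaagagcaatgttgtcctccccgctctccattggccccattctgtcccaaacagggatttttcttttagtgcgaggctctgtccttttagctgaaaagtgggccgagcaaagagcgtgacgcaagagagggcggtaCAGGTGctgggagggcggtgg

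The same letters are common in other promoters. Of 32851 promoters, 66.2% held an E-box in the 250 bases before the start, 12.6% an MCAT element, 8.59% a CArG box and 1.69% a MEF2 site. Of the promoters printed, *Acta2* is alone with a CArG box and *Synpo2* alone with a MEF2 site. A match describes letters, and no binding was measured.

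Other genes of contraction were taken from lists of their known roles. Their diet differences, and those of the marker genes below, are of the values as deposited. No difference after quantile normalization or median centring is given for them. Of 23 tested partners of the contractile filaments, 0 passed the adjusted threshold in limma. On the collagen diet 8 were higher and 15 lower (median -0.30 SD units), and 1 had an unadjusted p below 0.05. That gene was *Csrp1*, a LIM protein of smooth muscle, lower by -2.80 SD units (adjusted p = 0.646 in limma) with groups that did not overlap, as in 322 (2.53%) of all genes in that direction. *Cnn2* at -1.47 and *Myl6*, a myosin light chain, at -1.30 were the next, at unadjusted p of 0.0709 and 0.0982 in limma.

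Of 13 tested genes that set the phosphorylation of myosin and the calcium of the cell, 0 passed in limma, 10 were higher, 3 were lower and the median was 0.44 SD units. The unadjusted p was below 0.05 for 2, both lower on the collagen diet without overlap, beside 2.53% of all genes: *Rhoa*, the GTPase that sensitises contraction to calcium, at -3.21 SD units (adjusted p = 0.809 in limma), and *Dapk3*, a kinase of myosin light chain and its phosphatase, at -2.36 (adjusted p = 0.777 in limma). On the deposited scale *Rhoa* differed by -8.6e-06 and *Dapk3* by -7.56e-05, where array medians differed by up to 0.000369. *Ppp1r14a*, which inhibits myosin phosphatase, stood at -1.53 SD units. Receptors that start contraction gave 6 tested genes, 3 higher and 3 lower, with a median of 0.06, 0 of them at an unadjusted p below 0.05 in limma or passing the threshold.

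Of 18 tested regulators of transcription in smooth muscle, 0 passed in limma, 8 were higher, 10 were lower and the median was -0.14 SD units. *Mrtfb*, a coactivator of serum response factor related to myocardin, was higher by 1.71 SD units, the only one of the 18 with an unadjusted p below 0.05 (adjusted p = 0.925 in limma). Its relative *Mrtfa* differed by -1.15 and *Srf*, serum response factor itself, by -1.02.

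Over the arrays, *Mylk* and *Des* were each set against 68 genes of these lists, 136 relations chosen after the values were seen. Over the 6 arrays 0 passed an adjusted p below 0.05 by the exact permutation test, and the lowest adjusted p was 0.0944. Over 8 arrays 8 passed, *Mrvi1* with *Mylk* and 7 with *Des*, which were *Tpm1*, *Smtnl1*, *Synm*, *Nexn*, *Ppp1r12b* and *Mef2c* with a positive r and *Actn1* with a negative one. The share of other genes that would pass with *Mylk* or *Des* was not counted, so these calls serve as a description. With *Mylk*, *Ppp1r12b*, a targeting subunit of myosin phosphatase, had the highest r over the 6 arrays, 0.97, followed by *Prkg1*, the kinase of cyclic GMP that relaxes smooth muscle, at 0.96, *Smad3* at 0.91 and *Mrvi1*, the substrate of that kinase at the calcium store, at 0.90. Over 8 arrays *Mrvi1* had r = 0.93 with *Mylk* (exact permutation p = 0.00037, adjusted 0.0108) and rho = 0.90 (adjusted p = 0.0690 in the exact test), whereas *Ppp1r12b* and *Prkg1* had r = -0.036 and 0.073 there. With *Des*, the highest values over the 6 arrays were 0.98 for *Smtnl1*, 0.96 for *Nexn* and 0.96 for *Tead1*, and the lowest were -0.91 for *Jag1*, -0.90 for *Cald1* and -0.89 for *Actn1*, a non-muscle alpha-actinin.

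The markers of cells that can carry smooth muscle genes gave these values. Of 8 tested myofibroblast genes, 0 passed in limma, 7 were higher on the collagen diet, the median was 0.59 SD units, and *Lrrc15* at 3.18 and *Tnc*, tenascin C, at 2.28 were higher on every collagen array than on any control array, as *Acta2* and 0.777% of all genes tested were. The mean level of the 8 ranged from -0.97 to 0.51 SD units on the control arrays and from -0.42 to 1.62 on the collagen arrays, so the groups overlapped, and its part in the *Acta2* difference was not tested. All 8 were measured, but the lowest value on these arrays was 5.34, so a value above 0 does not show that a gene was detected. Of 7 pericyte genes 4 were higher and 3 were lower, the median was 0.03, and mean levels ran from -0.51 to 0.29 on the control arrays and from -0.74 to 0.95 on the collagen arrays. Of 8 tested endothelial genes 6 were higher, with a median of 0.26, and *Itga8* and *Npnt*, of the arrector pili muscle and its attachment, had a median of 0.04. *Acan*, the other gene of the arrector pili and dermal sheath list, lay below the filter and was not tested. None of the tested genes of these lists passed the threshold in limma.

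The 5 genes outside the members most like the mean level of the tested members over the 8 arrays, by Pearson's r among 12288 genes, were *Fiz1* (0.98), *Gfra1* (0.96), *Yaf2* (0.94), *Zdhhc23* (0.93) and *Mavs* (0.93). They are given as a description, since the highest of so many r over 8 arrays is large whatever the genes.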

How the data were processed

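Frozen dorsal skin was powdered and its RNA labelled with a kit that works from the 3′ end and put on 1 oligonucleotide array per mouse, per the labels' protocols. The deposited values, between 5.34 and 14.27, were taken to be log2. Of the software, R 2.7.2 is named in the submitters' processing notes. The method that summarized and normalized the probes is not given in these sources. After 64 control probe sets were left out, 34945 probe sets named exactly 1 gene in the platform annotation. Each gene took its probe set of highest mean, and the lowest 30% of genes were set aside, which left 12735. The fit of diet used lmFit and eBayes with a trend (limma 3.58.1, R 4.3.3), two-sided, with 6 residual and 0.613 prior degrees of freedom, and the script was tested on simulated data. Each probe set was also tested in the same fit over 31526 probe sets. Correlations used exact permutation in Python 3.11.15 (scipy 1.17.1), two-sided. No date or batch of the arrays was given. The members and lists were chosen with earlier results of these data known. Named genes were all members, up to 3 per list with the smallest p, and the 5 genes most like the members' mean. The relations of list genes with *Mylk* and *Des*, and the genes named from them, were chosen after seeing the values. Alternatives were other filters, normalizations, variance models, array weights, a replicate block, the mean of all probe sets, a skeletal muscle covariate and leaving out arrays.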

Additional observations from a re-analysis of the deposited data

Results flagged for a closer look

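Within 64 groups of 4 arrays, 5 had an array whose gap to the nearest other array divided by the group's range exceeded Dixon's critical value for 4 values, where chance gives about 1 in 20. In *Mylk* probe set 1425505_at, which was not the one used for the gene, collagen replicate 2 lay at -0.926 SD units, below the other collagen arrays. The mean level of the 16 skeletal muscle genes was -1.35 on control replicate 4, far below the other control arrays. The mean level of the contraction receptor genes was -0.642 on control replicate 1 and -0.489 on collagen replicate 4, each below the rest of its diet. The mean level of the arrector pili and dermal sheath genes was 0.907 on collagen replicate 3, above the other collagen arrays. The parts that tissue sampling or the arrays have in these values were not tested.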

How the results depend on the processing

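No member passed the threshold under any setting: in 170 member values tried the lowest adjusted p in limma was 0.603, and 22 turned their sign. Over all genes the count called was 0, and it was 1 with the lowest 50% left out, 1 at an adjusted p below 0.10 and 0 to 1 when 1 array was left out (1 without control replicate 1). Quantile normalization and median centring left 73 and 78 genes at an unadjusted p below 0.05, against 682. Median centring acts on differences between array medians of up to 0.000369. Quantile normalization acts on the whole distribution, whose quartiles differed between arrays by up to 0.0017. Both values are far above the median SD of 8.66e-06. Median centring turned *Acta2* to -0.064, *Tagln* to -0.14, *Cnn1* to -0.049, *Lmod1* to -0.14 and *Mylk* to -0.099 SD units. Quantile normalization turned *Myh11* to -0.77, *Tagln* to -0.35 and *Lmod1* to -0.13. With the skeletal muscle level as a covariate *Des* was -0.060, *Lmod1* -0.0048 and *Synpo2* -0.050, and *Lmod1* was -0.067 without control replicate 4 and collagen replicate 1.

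Leaving out 1 array gave *Acta2* 2.13 to 3.09, *Smtn* -3.64 to -1.94, *Myh11* 0.28 to 1.43, *Mylk* 0.25 to 1.33, *Tagln* -0.31 to 0.68, *Cnn1* -0.14 to 1.09, *Des* -0.27 to 0.86, *Lmod1* -0.41 to 0.52 and *Synpo2* -0.22 to 0.93 SD units, and the members' median -0.08 to 0.68. Of the 45 pairs, 5 passed. After quantile normalization 26 passed and after median centring 38, and 3 passed by Spearman's rho, 3 with deviations from each diet mean, 3 with the mean of all probe sets, 0 without control replicate 4 and collagen replicate 1 and 1 to 4 when 1 array was left out. *Acta2* with *Myh11* had r = -0.083 after quantile normalization, *Des* with *Lmod1* -0.83 (quantile) and -0.96 (centring), and *Lmod1* with *Synpo2* -0.83 and -0.95.

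Same-numbered arrays of the diets deviated with r of 0.0045, -0.018, 0.185 and -0.072 and 2 of 8 arrays went best with their own number. These values neither show nor exclude that the numbers pair the mice. With the replicate number as a block, 0 genes and 0 members were called and 1 member had an unadjusted p below 0.05.

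The number of arrays limits all comparisons. The limma p-values rest on the spread between 4 mice of each diet. The exact permutation p-values printed for correlations come from reordering the arrays without regard to diet. Signal over background was not given.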
